A study of Mus musculus with 23 samples.

Results

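The mitochondrial respiratory chain is built from proteins of 2 genomes, and the genes described here are those of the nuclear genome that encode its subunits and the assembly factors of complex I. They were taken as the protein-coding genes of the GENCODE mm10 annotation on chromosomes 1 to 19 and X whose symbols mark them as Nduf, Sdh, Uqcr, Cox4 to Cox8 or Atp5 genes. This gave 94 gene records of 21938 protein-coding genes on chromosomes 1 to 19, X and Y, namely 38 complex I subunits, 8 complex I assembly factors, 4 complex II subunits, 8 complex III subunits, 18 complex IV subunits and 18 ATP synthase records. These classes follow the symbols alone, so that Ndufa4, now known as a subunit of complex IV, and its paralogue Ndufa4l2 are counted with complex I. The symbol Atp5o belongs to 2 of these records, and the longer of them (ENSMUSG00000116933, 242585 nt) runs across Donson and Cryzl1, so that 96.3% of its sites lay in another gene as well. Uqcrc1 stands in the 94 records with 0 sites in every list, and the nearest site of any list on either strand lay 89.0 kb from the gene, so that its neighbourhood was without sites as well. Its 0 is not read here as a level, and it was left out of the densities of complex III.

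Crosslink sites of CTCF on nuclear RNA were measured by iCLIP2, in which ultraviolet (UV) light ties a protein to the RNA it touches and sequencing marks the nucleotide at which the tie was made. All groups came from E14 mouse embryonic stem cells (ESCs) in which both endogenous CTCF alleles carried mAID-eGFP, OsTir1 was expressed from Rosa26, an mCherry reporter sat at Hb9, and a doxycycline-inducible Flag-Halo CTCF, either wild type (WT) or with part of zinc finger 1 deleted (ΔZF1), sat at the Tigre locus. Each rescue line was a single clone, all cells received 1 µM 5-Ph-IAA and 1 µg/mL doxycycline for 24 h, and neural progenitor cells (NPCs) were made by 2 days of differentiation, which the labels give as the cell type. There were 4 libraries each of ESC WT, ESC ΔZF1, NPC ΔZF1 and the non-crosslinked controls (noXL) of ESCs and NPCs, and 3 of NPC WT. UV groups received 400 mJ/cm2 at 254 nm, and both noXL groups came from the WT rescue line.

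The libraries of a group had been merged before sites were called, so that each group is 1 list of sites with a score and no replicate error, and the read depth behind a list is unknown. Intervals in parentheses are therefore 95% counting intervals on numbers of sites, they say nothing about the spread between cultures, and no p-value is given. They also treat neighbouring called nucleotides as independent, so they are too narrow where sites cluster. The lists held between 102002 sites in genes (NPC noXL) and 429119 (ESC WT). Sites in 5 ESC marker genes numbered 1118 in the ESC WT list and 30 in the NPC WT list, whereas 5 NPC marker genes held 2 and 28, with Hes5 and Zic1 at 0 in every list.

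Complexes I, III and IV pass electrons from NADH and succinate, which enters through complex II, to oxygen and pump protons across the inner mitochondrial membrane, and ATP synthase uses the resulting gradient to make ATP. The messenger RNAs of the nuclear-encoded subunits are made in the nucleus and translated in the cytosol, and in most tissues they are among the steadily expressed genes, with some complex IV subunits reserved for muscle, lung or testis. Zinc finger 1 of CTCF is a region of the protein reported to contact RNA, and the comparison of ΔZF1 with WT asks which RNA contacts depend on it.

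Of 5042 nucleotides of the members that held a site in any list, 4245 were called in 1 list only and 40 were called in all 4 UV lists. Of these 40, 21 had no noXL site within 5 nt in either cell type and 19 had one. The first kind is shown by the following windows, each with 10 nt on either side of the site, read from GRCm38 on the strand of the gene with T for U and the crosslinked base in capitals. They are the highest-scoring coding-exon uridines of this kind in 6 members, ranked by the lowest of the 4 UV scores and leaving out Atp5a1.
Cox4i1, chr8:120673327-120673347, plus strand: cgttctgattTgggagaagag
Atp5b, chr10:128084309-128084329, plus strand: tcagaactatTgctatggatg
Ndufb6, chr4:40279177-40279197, minus strand: ggataactttTtgcgggacgg
Atp5h, chr11:115418480-115418500, minus strand: ggcgtaaactTgctctaaaaa
Uqcrh, chr4:116067146-116067166, minus strand: cacaagctctTtaaaaacttg
Cox7b, chrX:106019678-106019698, plus strand: tcttctgtgtTtctacatgga
In all 6 of these windows the base just before the site was a U as well.

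The second kind is shown by the 8 positions that were called in all 6 lists, the noXL lists included.
Atp5g3, chr2:73911292-73911312, minus strand, 5′ UTR: gcttgcgcgcCcagccccact
Atp5g3, chr2:73911291-73911311, minus strand, 5′ UTR: cttgcgcgccCagccccactg
Cox7c, chr13:86046781-86046801, minus strand, 5′ UTR: actcccatctTccctttcggt
Ndufa5, chr6:24527548-24527568, minus strand, 5′ UTR: gctggaggcgCtggacgctgt
Ndufa12, chr10:94199025-94199045, plus strand, coding exon: ggcggaccatGcagatgagaa
Ndufb8, chr19:44555418-44555438, minus strand, 5′ UTR: ttgcgcatgtGcagagtgaac
Atp5b, chr10:128084133-128084153, plus strand, intron: gtgccatctcCattctgtgat
Atp5b, chr10:128085279-128085299, plus strand, intron: agtgcttgagCcttcagtgat
The capital base was a U in Cox7c and a C or a G in the other 7 windows, and both Atp5g3 positions are neighbours. Both Atp5b positions are the first annotated nucleotide of a small RNA hosted by an intron of the gene, the snoRNA Snord59a (chr10:128084143-128084216) and the snoRNA record named Mir677 (chr10:128085289-128085360). Sites within 5 nt of these small RNAs numbered 12 at Snord59a and 13 at Mir677 over the 6 lists together, and 1 of the 25 was a uridine.

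The first 6 windows had been chosen as uridines of coding exons, and the counts that follow cover all 40 recurrent nucleotides. Among the 21 with no noXL site nearby, 16 were uridines (76.2%, 54.9 to 89.4), 14 lay in coding exons and 4 in 5′ UTRs, and they came from 20 members. Among the 19 with a noXL site nearby, 7 were uridines (36.8%, 19.1 to 59.0), 4 lay in coding exons and 13 in 5′ UTRs. Recurrence itself was more frequent in the members than in protein-coding genes at large, at 0.793% of positions (0.583 to 1.08) against 0.161% (0.154 to 0.169), and the share of recurrent positions that had a noXL site nearby was 47.5% in the members and 66.8% over all protein-coding genes.

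The members took a larger share of protein-coding sites in the WT lists than in the lists without UV. In ESCs 2518 of 421615 sites of the WT list lay in members (0.597%, 0.574 to 0.621), compared with 1053 of 213129 in the ΔZF1 list (0.494%, 0.465 to 0.525) and 544 of 148364 in the noXL list (0.367%, 0.337 to 0.399). In NPCs the shares were 0.549% (0.519 to 0.580) for WT, 0.363% (0.334 to 0.395) for ΔZF1 and 0.302% (0.270 to 0.338) for noXL. The ESC intervals of the 3 groups did not overlap, and in NPCs the WT interval lay above both others while those of ΔZF1 and noXL overlapped. Cytosolic ribosomal protein genes also held a larger share with WT than without UV, 0.876% against 0.568% for ESCs and 0.949% against 0.538% for NPCs. For proteasome subunit genes the WT shares of ESCs and NPCs were 0.469% and 0.443%, and the noXL shares 0.375% and 0.319%. The larger WT share was thus not particular to the members.

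**Figure D1:**
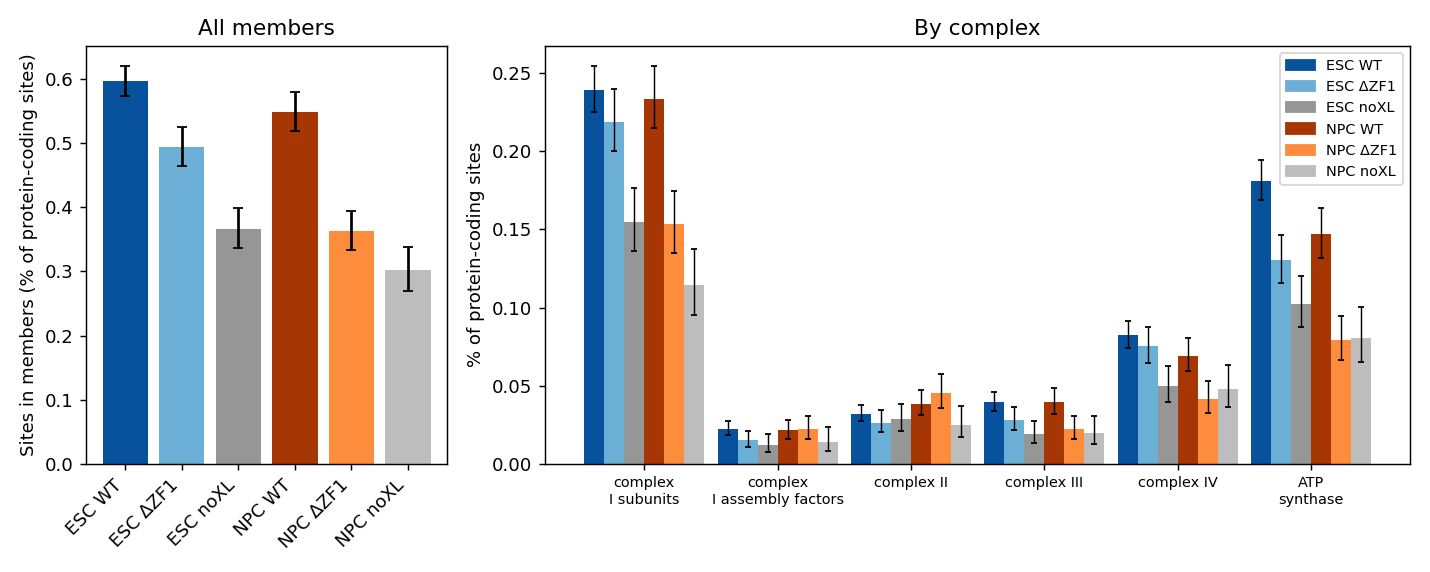
Share of protein-coding crosslink sites that lay in respiratory chain genes (y axis, percent), for all members on the left and by complex on the right, in the 6 site lists. Bars start at 0 and error bars are 95% Wilson intervals on the number of sites. The WT bar is the highest of its cell type for all members, at 0.597% in ESCs and 0.549% in NPCs, and complex I subunits and ATP synthase hold most of the sites.

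Most member sites lay in complex I subunits and ATP synthase. Complex I subunits held 1010 of the 2518 member sites of the ESC WT list and 528 of 1240 in the NPC WT list, ATP synthase held 764 and 332, and complex IV held 348 and 156. Per kb of exon, and with Uqcrc1 left out, complex III had the highest density in ESC WT at 17.4 exonic sites per kb, complex IV had 12.2, complex I subunits, complex II and ATP synthase each had 10.8, and the complex I assembly factors were lowest with 5.13. For NPC WT complex III was again highest at 9.14 sites per kb, followed by complex II at 7.38, and the assembly factors were lowest at 2.11. The median over genes put complex III first (20.4 and 10.2 sites per kb for WT of ESCs and NPCs) and the assembly factors last (4.69 and 1.98) as well. Complex IV came second to last (11.4 and 4.53), but its medians and densities count all 18 records, of which 13 held any site. A record without sites was thus left out for complex III only, and the rank of complex IV is not read as a lower level. With Uqcrc1 kept in, the complex III medians were 18.6 and 9.13, still the highest. Counting the exons of Uqcrc1 as well, complex III had 12.0 and 6.28 sites per kb, next below complex IV in ESCs and complex II in NPCs.

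With a minimum of 5 sites, 85 of the 94 records (90.4%) counted as bearing sites in ESC WT, against 35.6% of all protein-coding genes. ESC ΔZF1 had 72 such records (76.6%, against 31.6% of all protein-coding genes) and ESC noXL had 46 (48.9%, against 27.8%). The NPC lists had 80 for WT (85.1%, against 33.4%), 42 for ΔZF1 (44.7%, against 28.1%) and 22 for noXL (23.4%, against 22.9%). The share of members was thus far above the background in both WT lists and next to it in NPC noXL. It was above the background in both ΔZF1 lists and in ESC noXL as well. In bulk nuclear RNA such as this, more transcript and more CTCF contact per transcript cannot be told apart, because RNA abundance was not used here.

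Members without any site were Ndufa4l2, Cox4i2, Cox6a2, Cox7b2, Cox8b, Cox8c and Uqcrc1, a widely expressed core protein of complex III. Since Uqcrc1 is among them, a 0 in every list is not read as a level for any of the 7. Isoforms known for restricted tissues were not at 0 throughout. Cox6b2, the testis isoform of subunit 6b, had 17, 8 and 8 sites in the WT, ΔZF1 and noXL lists of ESCs and 9, 7 and 2 in those of NPCs, and its widely expressed counterpart Cox6b1 had 20, 5 and 7 and 10, 1 and 1. Cox7a1, the heart and muscle isoform of subunit 7a, differed between cell types, with 13, 8 and 1 sites in the WT, ΔZF1 and noXL lists of ESCs but 0 in all 3 NPC lists. Against a floor of 3 sites, and scaled to the sites in genes of each list, it was at least 2.32-fold higher in ESC WT than in NPC WT.

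The counts by gene that follow are unscaled, and the lists differ in size, with 429119, 217770 and 150821 sites in genes for WT, ΔZF1 and noXL of ESCs and 230147, 153211 and 102002 for NPCs, so that an order of WT, ΔZF1 and noXL is also that of the list sizes. Ndufs1 (ENSMUSG00000025968, chr1:63143596-63176833, minus strand), the largest iron-sulfur subunit of complex I, held the most of any complex I gene. In ESCs it had 104 sites with WT, 54 with ΔZF1 and 36 without UV, and the corresponding NPC lists held 35, 29 and 9. In ESC WT 43 of its sites lay in coding exons and 44 in introns, while in NPC WT 26 of 35 lay in coding exons and 4 in introns. Ndufv1, which binds NADH, had 53, 26 and 16 sites in ESC WT, ΔZF1 and noXL and 25, 15 and 5 in NPCs. In both of these core genes the order of the lists was WT, then ΔZF1, then noXL in either cell type.

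Complex I assembly factors, which are needed to build the complex but are no part of it, held few sites, between 6 and 17 in ESC WT. Ndufaf4 had 17, 12 and 4 sites in ESC WT, ΔZF1 and noXL and 12, 1 and 5 in NPCs. Ndufaf2 had 13, 4 and 7 in ESCs and 6, 8 and 5 in NPCs. Ndufaf6 had more sites with ΔZF1 than in either other list of NPCs, with 15 against 6 in WT and 3 in noXL, and 10 of the 15 were intronic. In ESCs its counts ran the other way, with 16 in WT, 4 in ΔZF1 and 1 in noXL.

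In complex II, which links succinate oxidation to the chain, Sdha (ENSMUSG00000021577, chr13:74322254-74350280, minus strand), the flavoprotein, held 62, 30 and 21 sites in ESC WT, ΔZF1 and noXL and 44, 32 and 14 in NPCs. Sdhb, its iron-sulfur partner, held 30, 12 and 10 in ESCs and 20, 13 and 2 in NPCs. Sdhc, a membrane anchor, held 25, 8 and 5 in ESCs and 11, 12 and 4 in NPCs. WT was highest in 5 of these 6 comparisons within a cell type, and for Sdhc in NPCs WT and ΔZF1 lay 1 site apart. The best-scoring site of Sdhb was the same 5′ UTR cytidine in all 4 UV lists, which was true of no other gene among the 3 with most sites in each complex:
Sdhb, chr4:140961377-140961397, plus strand: aggggtggggCtgacgtcagg
It scored 49.9 and 11.4 in the WT and ΔZF1 lists of ESCs and 18.4 and 18.8 in those of NPCs, and the NPC noXL list held the same nucleotide with a score of 7.38.

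In complex III, which hands electrons from quinol to cytochrome c, Uqcrc2, a core protein of the matrix side, held 54, 25 and 10 sites in ESC WT, ΔZF1 and noXL and 28, 16 and 4 in NPCs. None of the 14 noXL sites of Uqcrc2 was a uridine, compared with 30 of 54 WT sites in ESCs and 22 of 28 in NPCs. Uqcrfs1, the Rieske iron-sulfur protein, held 23, 11 and 4 in ESCs and 11, 5 and 6 in NPCs. Uqcr11, a small subunit, held 19, 6 and 4 in ESCs and 14, 1 and 1 in NPCs, and was the densest member of the NPC WT list at 20.3 exonic sites per kb.

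In complex IV, the terminal oxidase, Cox7b held 72, 32 and 14 sites in ESC WT, ΔZF1 and noXL and 22, 12 and 13 in NPCs. Most of them were intronic in ESCs, 56 of 72 in WT and all 14 in noXL, but the best-scoring site of ESC ΔZF1 and of NPC WT was the coding-exon uridine shown above, with scores of 123.7 and 95.6. Cox4i1 held 51, 35 and 6 in ESCs and 29, 11 and 14 in NPCs, and its counts are uncertain because the record Gm20388 overlaps the whole gene on the same strand. Cox6c held 40, 14 and 6 in ESCs and 15, 7 and 3 in NPCs. The NPC noXL list was thus above NPC ΔZF1 for Cox7b and Cox4i1 and below it for Cox6c.

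In ATP synthase the genes with most sites were those of the rotating and catalytic head. Atp5c1 (ENSMUSG00000025781, chr2:10056016-10080510, minus strand), the central shaft, held 107, 36 and 20 sites in ESC WT, ΔZF1 and noXL and 33, 13 and 3 in NPCs. Atp5a1, the alpha subunit, held 92, 33 and 11 in ESCs and 43, 13 and 4 in NPCs. Atp5b, the catalytic beta subunit, held 84, 25 and 17 in ESCs and 44, 11 and 6 in NPCs, of which 21 over all lists lay in the hosted small RNAs. WT was the highest list for each of these 3 genes in both cell types, and ΔZF1 was the second.

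**Figure D2:**
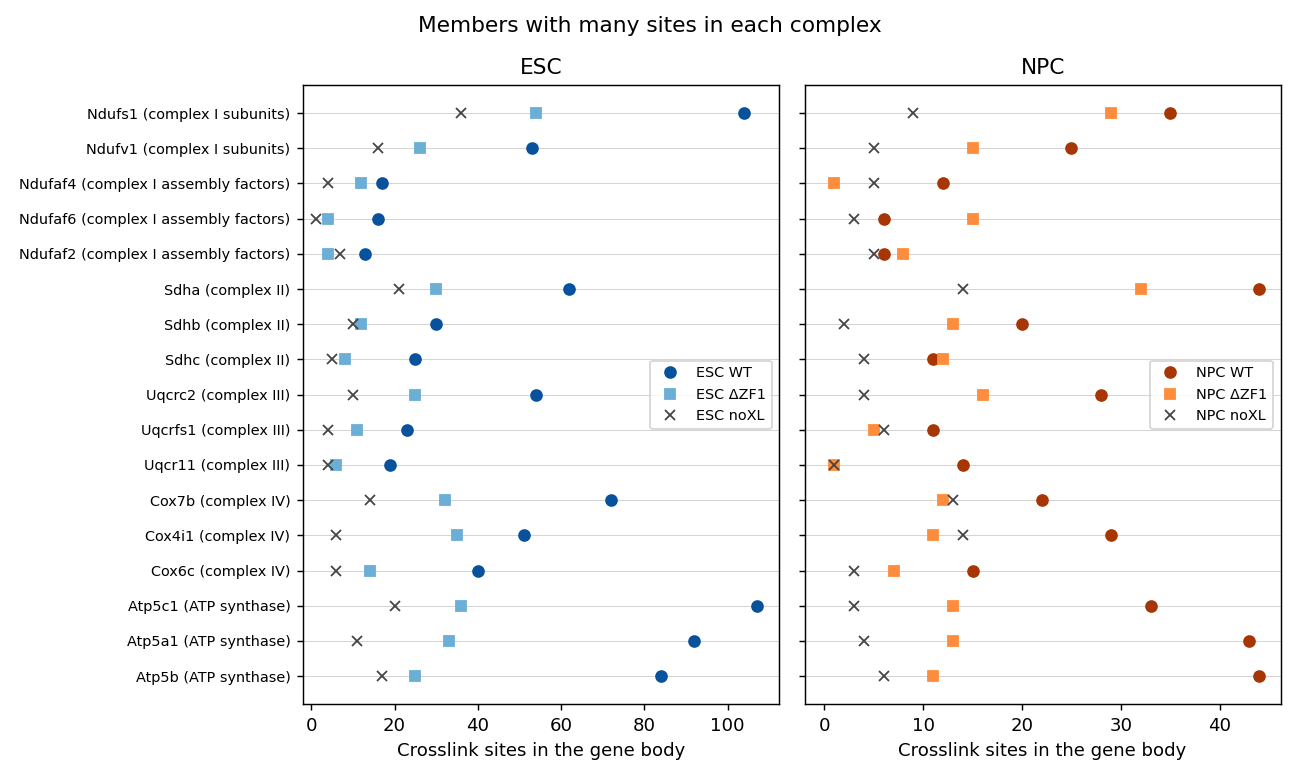
Number of crosslink sites in the gene body (x axis) for members with many sites in each complex (y axis), in ESCs on the left and NPCs on the right. Circles are WT, squares ΔZF1 and crosses noXL, each 1 merged list. WT is the highest list for every gene shown in ESCs, and in NPCs for all but Ndufaf6, Ndufaf2 and Sdhc.

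Within the genes, member sites were mostly exonic. In ESCs exons held 78.8% (77.2 to 80.3) of the member sites of the WT list, 70.1% of those of ΔZF1 and 67.8% of those of noXL. The corresponding NPC shares were 85.2%, 73.3% and 68.3%. Over all protein-coding genes the exon share was 66.2% in ESC WT and 72.8% in NPC WT. The members are short, with a median body of 7419 nt against 17425 nt for protein-coding genes. Among the 11386 protein-coding genes whose body lay between the 10th and 90th percentile of the members the exon shares were 79.0% and 83.4%, next to those of the members, so the exon share itself did not set the members apart from genes of like length.

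The parts of the exon did differ from those of genes of like length. Coding exons held 49.7% (47.8 to 51.7) of member sites for ESC WT and 59.3% (56.5 to 62.0) for NPC WT, against 42.0% and 47.9%. 5′ UTRs held 14.8% (13.5 to 16.3) and 15.9% (14.0 to 18.0), against 12.0% and 12.4%. 3′ UTRs held 8.70% (7.66 to 9.86) and 7.26% (5.94 to 8.84), against 19.6% and 18.6%. Only the gene body was matched in length, and the lengths of UTRs and coding exons were not, so these shares are not densities. Per kb the first and internal exons of the members with at least 5 sites in ESC WT carried 22.8 and 27.9 sites and the last exons 9.65, while genes of like length with at least 5 sites carried 14.4, 14.0 and 6.89. The density was thus higher in members than in genes of like length in all 3 kinds of exon in that list. In NPC WT the members had 14.3, 17.3 and 4.69 sites per kb and genes of like length 8.71, 9.02 and 4.00. In the ΔZF1 and noXL lists the last exons of members were less dense than those of genes of like length, at 2.65 against 3.49 for ΔZF1 and 1.85 against 2.29 for noXL of ESCs, and at 1.88 against 2.61 and 1.62 against 1.71 for those of NPCs.

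**Figure D3:**
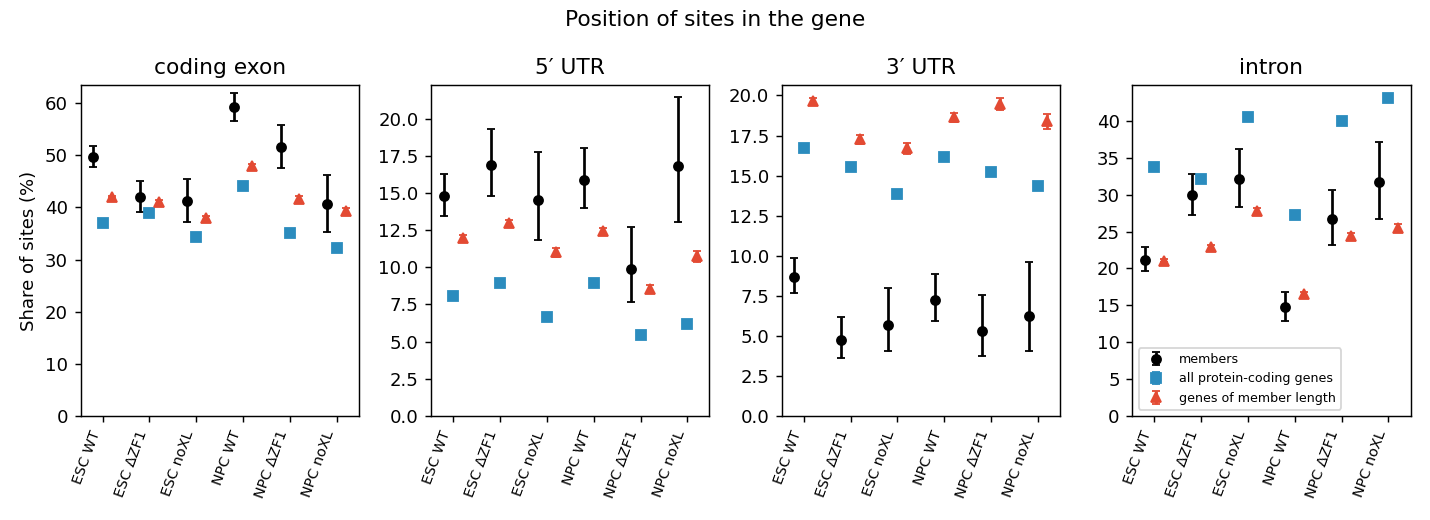
Share of sites in coding exons, 5′ UTRs, 3′ UTRs and introns (y axes, percent, each panel with its own scale from 0) in the 6 lists, for members (circles), all protein-coding genes (squares) and protein-coding genes of member length (triangles, 10th to 90th percentile). Bars are 95% Wilson intervals. In ESC WT 3′ UTRs hold 8.70% of member sites against 19.6% in genes of member length, and coding exons 49.7% against 42.0%. Lengths of UTRs and coding exons were not matched.

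Along the spliced transcript with the longest coding sequence, 26.4% of the exonic sites of ESC WT lay in the first 20% of the length and 10.4% in the last 20%, and for NPC WT the shares were 25.5% and 7.20%. The first 20% held 32.5% of exonic sites for ESC ΔZF1 and 26.1% for NPC ΔZF1, and 31.9% for ESC noXL and 36.0% for NPC noXL. Intronic sites of members lay closer to exons, since 31.8% (28.0 to 35.9) of intronic member sites in ESC WT lay within 100 nt of an exon of a protein-coding gene, against 12.4% over all protein-coding genes, and in NPC WT 41.0% against 12.6%. Intron lengths were not matched in that comparison.

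The base under the site separated UV from noXL lists. In ESCs uridines made up 64.5% (62.6 to 66.3) of member sites for WT, 56.5% (53.5 to 59.5) for ΔZF1 and 27.4% (23.8 to 31.3) for noXL. In NPCs the shares were 67.1% (64.4 to 69.7) for WT, 59.0% (54.8 to 63.0) for ΔZF1 and 31.4% (26.4 to 36.8) for noXL. These intervals did not overlap in either cell type. Among members with at least 5 sites in both lists, the uridine share was higher in WT than in noXL for 44 of 46 in ESCs and 21 of 22 in NPCs, and higher in WT than in ΔZF1 for 48 of 72 and 26 of 40.

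Coding exons of the members were richer in uridine sites than those of protein-coding genes at large. In ESCs 74.0% (71.5 to 76.3) of the WT sites in member coding exons were uridines against 60.0%, and 69.2% (64.8 to 73.4) of the ΔZF1 sites against 47.8%. In NPCs the shares were 77.4% (74.3 to 80.3) against 66.3% for WT and 67.4% (61.7 to 72.6) against 56.8% for ΔZF1. In ESC noXL the values were 26.8% (21.4 to 32.9) and 23.9%, and in NPC noXL 33.3% (25.6 to 42.1) and 22.8%. The higher uridine share in member coding exons was thus not limited to the UV lists. The 5′ UTRs were different, with uridine at 36.5% (31.7 to 41.5) of member sites in ESC WT, near the 35.3% of all protein-coding genes, and at 25.3% (17.0 to 35.9) in ESC noXL. The base before the site was also often a uridine in UV lists, at 51.2% of member sites for ESC WT and 57.5% for NPC WT against 26.1% in ESC noXL and 27.1% in NPC noXL, whereas 6 nt upstream of the site the 4 UV lists lay between 23.8% and 25.9%.

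**Figure D4:**
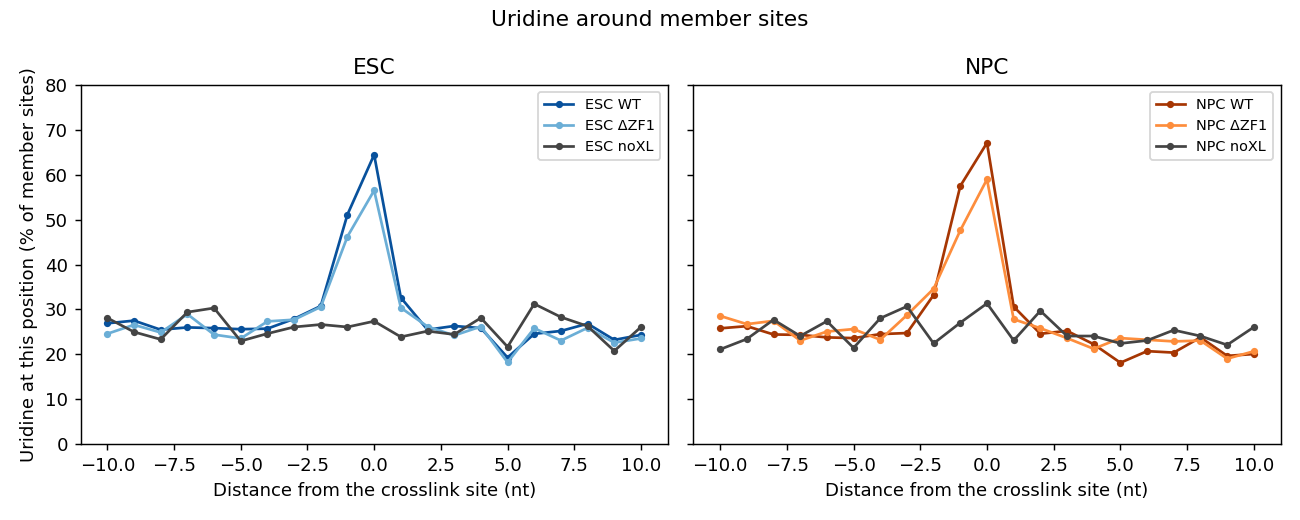
Share of member sites with a uridine (y axis, percent) at each distance from the crosslinked nucleotide (x axis, nt, 0 is the site and negative values lie upstream), in ESC lists on the left and NPC lists on the right. The 4 UV lists peak at the site, from 56.5% in ESC ΔZF1 to 67.1% in NPC WT, against 27.4% and 31.4% at the site in the noXL lists of ESCs and NPCs.

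Site scores, which express how strongly the caller's model favours a crosslink, were high in members. The median score of member sites was 5.50 in ESC WT against 2.53 over all protein-coding genes, and 4.30 against 2.37 in NPC WT. Of member sites, 30.1% (28.3 to 31.9) for ESC WT and 26.2% (23.8 to 28.7) for NPC WT were in the top 10% of their list by score, compared with 20.2% and 12.1% in ESC and NPC ΔZF1 and 14.0% and 9.90% in ESC and NPC noXL. Ribosomal protein genes, taken as another set of abundantly expressed genes, were higher still, with 45.1% for ESC WT and 48.1% for NPC WT, and proteasome subunit genes were lower, with 14.8% and 15.9%.

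To compare lists of different size, site counts of a gene were taken as a scaled log2 ratio, the log2 ratio of counts with 1 added to each, minus the log2 ratio of all sites in genes of the 2 lists. Genes needed 20 sites in both lists together, and a value of 1 or more, or -1 or less, counted as past the limit. WT stands in the comparison with noXL and in that with ΔZF1, so these comparisons share lists and are given side by side.

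Against noXL, members had more WT sites than list size would give. The pooled scaled log2 ratio of member sites was 0.70 (0.57 to 0.84) in ESCs and 0.86 (0.68 to 1.04) in NPCs, and with sites at or above the median score alone 1.21 and 1.41. In ESCs 16 of 62 members with enough sites (25.8%) were past 1, where 8.12% of all genes were, and 0 were past -1, where 6.60% of all genes were. In NPCs 12 of 28 (42.9%) were past 1 against 10.5% of all genes, and 0 past -1 against 6.51%. Members had a median of 0.49 in ESCs and 0.88 in NPCs, with medians over all genes of 0.02 and 0.03. The excess was not particular to the members. Pooled values were 0.62 (0.52 to 0.73) in ESCs and 0.81 (0.68 to 0.95) in NPCs for cytosolic ribosomal protein genes, overlapping those of the members. Proteasome subunit genes had lower positive values, at 0.32 (0.19 to 0.46) and 0.47 (0.29 to 0.65).

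Ndufa1, an accessory subunit of complex I, had 21 sites in ESC WT and 0 in ESC noXL, which against a floor of 3 sites and scaled to list size is at least 2.46-fold. Uqcrb, a complex III subunit, had 19 and 1 (scaled log2 ratio 1.81, 0.19 to 5.29). At the other end Ndufaf2 had 13 and 7 (-0.70, -1.90 to 0.67) and Cox6a1 had 15 and 7 (-0.51, -1.66 to 0.85). In NPCs the highest were Atp5a1 with 43 and 4 (1.96, 0.83 to 3.67) and Atp5c1 with 33 and 3 (1.91, 0.67 to 3.90), and the lowest were Atp5j, the coupling factor 6 of the stator, with 15 and 9 (-0.50, -1.60 to 0.72), and Cox7b with 22 and 13 (-0.46, -1.39 to 0.56). The intervals of the high members excluded 0 and those of the low members did not.

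For ΔZF1 the excess over noXL was smaller, with a pooled value of 0.42 (0.27 to 0.57) in ESCs and 0.26 (0.06 to 0.47) in NPCs. With uridine sites only the NPC value was 0.08 (-0.23 to 0.42), an interval that includes 0, and the ESC value was 0.66 (0.41 to 0.93). In ESCs 3 of 28 members (10.7%) were past 1 against 7.86% of all genes and 0 past -1 against 6.56%, and in NPCs 1 of 10 (10.0%) against 7.19% and 0 against 8.03%. The 3 in ESCs included Cox4i1 with 35 and 6 sites (1.83, 0.80 to 3.23) and Ndufb5, an accessory subunit of complex I, with 19 and 3 (1.79, 0.47 to 3.80). The 1 in NPCs was Uqcrc2 with 16 and 4 (1.18, -0.10 to 2.92). The lowest values were those of Atp5f1, the stator subunit b, with 19 and 18 (-0.46, -1.37 to 0.46) and Sdhb with 12 and 10 (-0.29, -1.44 to 0.91) in ESCs, and of Cox4i1 with 11 and 14 (-0.91, -2.05 to 0.18) and Cox7b with 12 and 13 (-0.69, -1.81 to 0.40) in NPCs. Ndufs1 was next below Uqcrc2 in NPCs, with 29 and 9 (1.00, 0.05 to 2.16).

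Between ΔZF1 and WT the members were lower in ΔZF1. The pooled scaled log2 ratio was -0.28 (-0.38 to -0.18) in ESCs and -0.59 (-0.74 to -0.45) in NPCs. Its size moved with the sites admitted: with sites at or above the median score alone it was -0.62 and -1.0, and the ESC value was -0.48 with exonic sites and -0.17 with uridines alone. In ESCs 57 of 73 members with enough sites were below 0, with a median of -0.21, and 7 (9.59%) were past -1 and 2 (2.74%) past 1, where 5.45% and 6.84% of all genes were. In NPCs 24 of 33 were below 0, with a median of -0.25, and 6 (18.2%) were past -1 and 1 (3.03%) past 1, where 7.36% and 5.76% of all genes were. The medians over all genes were 0.04 and -0.04. Of the 33 members with enough sites in both cell types, 20 were below 0 in both, 3 above 0 in both, and 10 had opposite signs.

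The lowest members in ESCs were both accessory subunits of complex I. Ndufc2 (ENSMUSG00000030647, chr7:97400003-97407802, plus strand) had 1 site in ΔZF1 and 21 in WT (-2.48, -5.96 to -0.86), and Ndufa1 had 2 and 21 (-1.90, -4.36 to -0.47). In NPCs they had 4 and 12 and 2 and 7 sites, too few for the ratio. The highest in ESCs were Ndufa6, another accessory subunit, with 19 and 16 (1.21, 0.28 to 2.17) and Ndufa13 with 33 and 32 (1.02, 0.33 to 1.72), all of whose sites also lie in the overlapping record of Yjefn3, so that its counts are uncertain.

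In NPCs the lowest were parts of the ATP synthase head, Atp5d with 2 sites in ΔZF1 and 22 in WT (-2.35, -4.81 to -0.93) and Atp5b with 11 and 44 (-1.32, -2.35 to -0.48). In ESCs Atp5d had 11 and 38 (-0.72, -1.76 to 0.14) and Atp5b 25 and 84 (-0.73, -1.41 to -0.13). The highest in NPCs were Ndufaf6 with 15 and 6 (1.78, 0.59 to 3.23) and Sdhc with 12 and 11 (0.70, -0.44 to 1.86), for which ESCs gave -0.79 (-2.53 to 0.49) and -0.55 (-1.79 to 0.45).

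By complex, ATP synthase was lower in ΔZF1 in both cell types, at -0.48 (-0.68 to -0.28) in ESCs and -0.89 (-1.19 to -0.59) in NPCs, and 12 of 15 and 9 of 9 of its members with enough sites were below 0. Complex III was lower as well, at -0.48 (-0.92 to -0.07) and -0.82 (-1.42 to -0.27). Complex I subunits were at -0.13 (-0.29 to 0.02) in ESCs and -0.60 (-0.83 to -0.38) in NPCs, and complex IV at -0.14 (-0.41 to 0.13) and -0.73 (-1.17 to -0.32). Complex II did not share the lower value in NPCs, where it stood at 0.24 (-0.22 to 0.69) with 4 of 4 members above 0, compared with -0.28 (-0.74 to 0.16) and 0 of 4 in ESCs. The interval of each of its 4 members included 0 in both cell types, and Sdhb in NPCs lay next to 0 at 0.002 (-1.02 to 0.95). The complex I assembly factors stood at 0.06 (-0.59 to 0.68) in NPCs and -0.55 (-1.15 to -0.00) in ESCs. Their NPC value leaned on Ndufaf6, which held 15 of their 33 ΔZF1 sites and 6 of their 48 WT sites. Its interval overlapped those of complex I, complex III and complex IV, so a difference from these cannot be read from it. The NPC interval of complex II did not overlap those of complex I, complex III, complex IV or ATP synthase, and no test beyond these intervals was run.

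**Figure D5:**
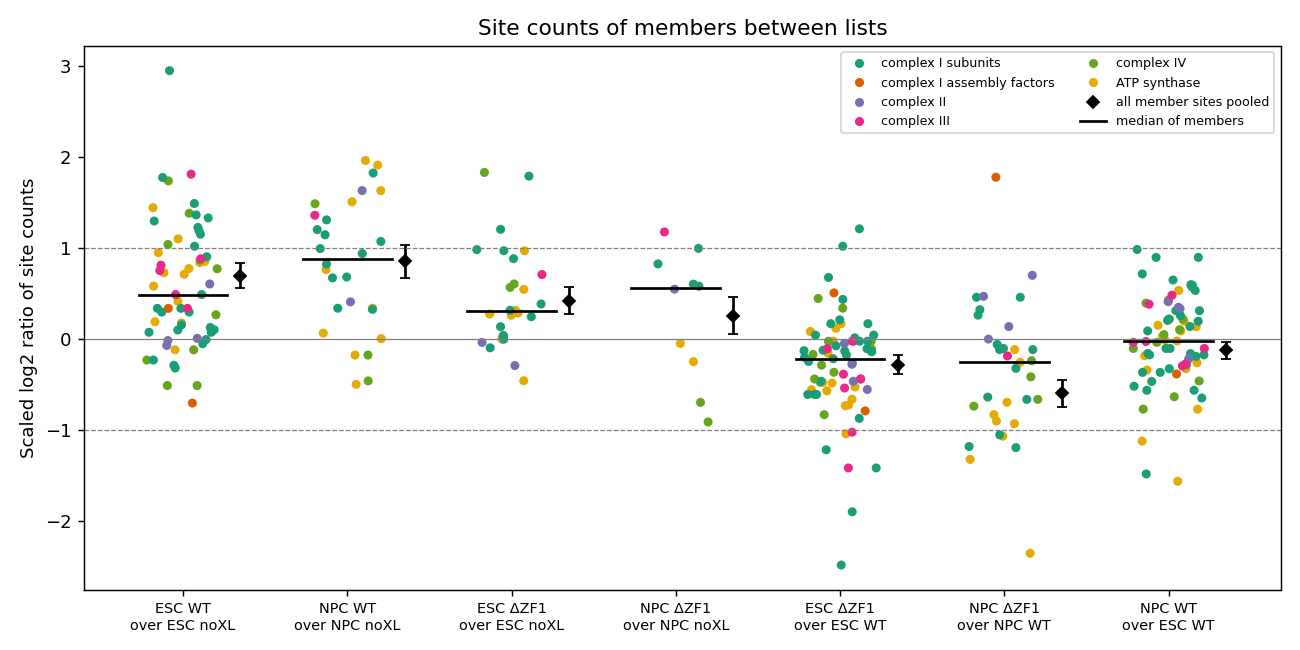
Scaled log2 ratio of site counts (y axis) of each member whose sites in the 2 lists sum to 20 or more, in 7 pairs of lists (x axis), coloured by complex, with points spread sideways only for legibility. Horizontal bars are member medians, diamonds the ratio of all member sites pooled with 95% intervals, and dashed lines the limits of 1 and -1. WT over noXL lies mostly above 0 with pooled values of 0.70 and 0.86, and ΔZF1 over WT mostly below with -0.28 and -0.59.

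Other abundantly expressed genes gave values of the same sign. Over 83 cytosolic ribosomal protein genes the pooled ΔZF1 over WT value was -0.14 (-0.23 to -0.06) in ESCs and -0.68 (-0.80 to -0.57) in NPCs, and over 39 proteasome subunit genes -0.46 (-0.59 to -0.34) and -0.45 (-0.60 to -0.29). The interval of the members overlapped that of the ribosomal protein genes in both cell types and that of the proteasome genes in NPCs. In ESCs the members and the proteasome genes overlapped between -0.38 and -0.34. Lower values in ΔZF1 than in WT were thus shared with these other gene sets.

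Between the cell types the WT lists differed little for the members as a whole, with a pooled NPC over ESC value of -0.12 (-0.22 to -0.03). Of 72 members with enough sites, 0 were past 1 and 3 (4.17%) past -1, where 11.5% and 10.4% of all genes were. The lowest were Atp5g1, which encodes the c-ring subunit, with 9 sites against 54 (-1.56, -2.68 to -0.69) and Ndufb11, a complex I subunit, with 4 and 25 (-1.48, -3.20 to -0.29). The third was Atp5f1 with 19 and 80 (-1.12, -1.89 to -0.46). The highest were Ndufs8, an iron-sulfur subunit of complex I, with 16 and 15 (0.99, -0.00 to 1.99) and Ndufb8 with 17 and 17 (0.90, -0.05 to 1.85).

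Positions were shared between lists more often in members than in protein-coding genes at large. Of ΔZF1 sites in members, 46.2% (43.2 to 49.2) lay within 5 nt of a WT site in ESCs and 28.2% (24.6 to 32.1) in NPCs, against 24.0% and 13% over all protein-coding genes. Of NPC WT sites in members, 58.6% (55.9 to 61.3) lay within 5 nt of an ESC WT site, against 28.0%. Proximity to noXL sites was lower but also above the background, at 11.3% (10.1 to 12.6) of ESC WT sites against 7.57% and 9.35% (7.86 to 11.1) of NPC WT sites against 5.53%. The exons of members carried more sites per kb than those of genes of like length in both WT lists, and that difference in density was not removed from these shares.

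Genes of the respiratory chain outside the rule were counted for comparison, without a test of likeness. Of 39 such genes, among them cytochrome c, electron transfer flavoproteins and assembly factors of complexes II to V, 35 had at least 5 WT sites in ESCs and 28 in NPCs, where 35.6% and 33.4% of protein-coding genes did. Their median ΔZF1 over WT value was -0.24 over 22 genes in ESCs and -0.22 over 11 in NPCs. None was past 1 in either cell type, where 6.84% and 5.76% of all genes were, and 2 and 1 were past -1, where 5.45% and 7.36% of all genes were. For WT over noXL their medians were 0.44 over 22 genes and 0.33 over 7, beside member medians of 0.49 and 0.88, and 5 and 1 of them were past 1, where 8.12% and 10.5% of all genes were. For ΔZF1 over noXL their medians were 0.00 over 9 genes in ESCs and 0.07 over 3 in NPCs, and in each cell type 1 gene was past 1 (7.86% and 7.19% of all genes) and another past -1 (6.56% and 8.03% of all genes). Of 12 regulators of respiratory genes, among them Nrf1, Gabpa and Tfam, 8 had at least 5 sites in either WT list, and the corresponding ΔZF1 over WT medians were 0.02 over 8 genes and 0.34 over 7.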

How the data were processed

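The 23 libraries were labelled by cell type, rescue and UV. According to the methods and the labels the authors used Flexbar to split and trim the reads and STAR for alignment to mm10, removed duplicates with UMI-tools, shifted reads with bedtools, merged the alignments of a group and called sites with PureCLIP, and the versions are not given in the sources used here. The deposited files give the position, strand and PureCLIP score of each site, with 1 list for each of the 6 groups, and the highest score in every list was 708.4. How deep each library was sequenced, and how replicates differed, cannot be read from them. PureCLIP calls sites from read starts, so more reads give more sites, and the number of sites follows RNA abundance and depth as well as binding.

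Sites were assigned to GENCODE M21 genes (GRCm38) by strand, with scripts in Python 3.11.15 (numpy 2.4.6, pandas 2.3.3 and pysam 0.24.0). Member sites were classed by their own gene's annotation with coding exons before 3′ UTRs, then 5′ UTRs, other exons and introns, and sites in 2 member records were counted once in pooled values. Sites of the comparison genes were classed in the same order, but by any protein-coding gene at the position. A site in the exon of an overlapping gene could thus count as exonic there and as intronic in a member. Shares have Wilson 95% intervals, and ratios have intervals from the Wilson interval of the share that 1 list held of the sites of both. PCR duplicates had been removed, and intervals and floors (3 sites) cover counting error only. The ratios and intervals were tested on simulated data.

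The members and all gene lists were chosen with earlier results of these data known. Genes named were the 3 with most sites in each complex, for each pair of lists the 2 members at either end of the scaled ratios, members without sites, and positions called in all 4 UV lists. Cox6b1, Cox6b2, Cox7a1, Atp5f1 in the cell type comparison and the small RNAs of Atp5b were named after their values were seen, and Uqcrc1 was left out of the densities after its 0 was seen. An item that falls under this rule is not reported here. Alternatives covered score, base, exon, overlap and noXL filters, scalings, pseudocount and count minima.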

Additional observations from a re-analysis of the deposited data

Results flagged for a closer look

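Of the 13 subunits encoded by the mitochondrial genome, which were outside the comparisons above, sites appeared in the WT lists above the level of the control lists. The ESC WT list held 18 sites in these genes of 451308 (0.00399%, 0.00252 to 0.00630) and the NPC WT list 16 of 239381 (0.00668%, 0.00411 to 0.0109). The noXL lists held 0 of 159021 in ESCs, with a Wilson upper limit of 0.00242%, and 0 of 107250 in NPCs, with an upper limit of 0.00358%, and a floor of 3 sites gives 0.00189% and 0.00280%. The ΔZF1 lists held 1 site in ESCs and 0 in NPCs. The sites lay in mt-Nd5, with 7 and 9 sites in the WT lists of ESCs and NPCs, and in mt-Nd3, mt-Nd4, mt-Nd6 and mt-Cytb, while mt-Nd1, mt-Nd2, mt-Nd4l and the mitochondrially encoded subunits of complex IV and ATP synthase were listed at 0 in every list. No member had ΔZF1 over WT ratios of opposite sign in ESCs and NPCs with both intervals excluding 0, and no test compared the cell types.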

How the results depend on the processing

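No paired analysis was possible because sites had been called on merged libraries, which also kept any single library from being left out. Alternatives were run for the pooled ratios, counts past the limits and shares over all members, and not for single genes, single complexes (but for the long Atp5o record below) or the gene sets used for comparison. None of these pooled ratios changed sign under the alternatives run, and 109 of 196 alternative values stayed within the interval of the reported value or within 1.5 times a reported count. The cause of the other changes was not tested, except that unscaled values contain the difference in list size.
Restricted to sites at or above the median score, the pooled ratio was -0.62 for ESC ΔZF1 over WT, -1.0 for NPC ΔZF1 over WT, 1.21 for ESC WT over noXL, 1.41 for NPC WT over noXL and 0.59 for ESC ΔZF1 over noXL. With uridines only it was -0.17 for ESC ΔZF1 over WT and 0.66 for ESC ΔZF1 over noXL, and for NPC ΔZF1 over noXL 0.08 with an interval that includes 0 (-0.23 to 0.42), and with exonic sites only -0.48 for ESC ΔZF1 over WT. Without scaling, the pooled values for ESC and NPC ΔZF1 over WT, ESC and NPC WT over noXL, ESC and NPC ΔZF1 over noXL and NPC over ESC WT were -1.26, -1.18, 2.21, 2.03, 0.95, 0.85 and -1.02, and scaled to the number of libraries -1.26, -1.60, 2.21, 2.44, 0.95, 0.85 and -0.61.
Shares in parentheses here are those of all genes past the same limit at the same setting. With at least 50 sites, 1 of 25 members was higher (3.66%) and 1 lower (3.64%) for ESC ΔZF1 over WT, 0 of 5 higher (4.77%) and 2 lower (3.04%) for NPC ΔZF1 over WT, 4 of 18 higher for ESC WT over noXL (3.23%), 1 of 2 higher for NPC WT over noXL (4.41%) and 0 of 3 higher for ESC ΔZF1 over noXL (3.05%), and no member was left for NPC ΔZF1 over noXL. With at least 10 sites, 2 of 71 were higher (7.67%) and 22 lower (10.7%) for NPC ΔZF1 over WT, 19 of 64 higher for NPC WT over noXL (15.1%), 9 of 59 higher (11.3%) and 1 lower (9.16%) for ESC ΔZF1 over noXL, 6 of 32 higher (10.4%) and 3 lower (11.1%) for NPC ΔZF1 over noXL, and 1 of 84 higher for NPC over ESC WT (14.9%). A pseudocount of 0.5 gave 6 of 28 higher for ESC ΔZF1 over noXL (8.74%) and 2 of 10 for NPC ΔZF1 over noXL (8.11%).
The member share of protein-coding sites was 0.883% (ESC WT), 0.575% (ESC ΔZF1) and 0.774% (NPC WT) with only sites of at least the median score. With exonic sites only it was 0.710% for WT and 0.418% for noXL in ESCs, and 0.643%, 0.443% and 0.362% for WT, ΔZF1 and noXL in NPCs, and with sites in 1 gene only 0.462% in ESC ΔZF1. The uridine share with sites of at least the median score was 66.8% for ESC WT and 71.0% for NPC WT, and 67.4% in ESC WT without sites near noXL sites. The exon share with sites of at least the median score was 85.8% for ESC WT, 76.3% for ESC ΔZF1 and 91.7% for NPC WT, and with sites in 1 gene only 80.5%, 74.2% and 87.3%, and 74.9% in NPC noXL.
In the order ESC WT, ESC ΔZF1, ESC noXL, NPC WT, NPC ΔZF1 and NPC noXL, member sites in the top 20% by score were 43.3%, 31.1%, 23.5%, 38.7%, 22.5% and 17.5%, and members with at least 20 sites numbered 48, 16, 3, 20, 2 and 0. Members with at least 1 site numbered 83 in ESC noXL, 81 in NPC ΔZF1 and 77 in NPC noXL. Sites shared at the same nucleotide were 31.5% for ESC ΔZF1 with WT, 16.1% for NPC ΔZF1 with WT, 3.49% for ESC WT with noXL, 6.08% for ESC ΔZF1 with noXL, 3.23% for NPC WT with noXL, 2.93% for NPC ΔZF1 with noXL and 39.1% for NPC WT with ESC WT, and within 50 nt 73.5%, 56.2%, 34.3%, 34.5%, 24.4%, 22.5% and 85.7%.
Leaving out the long Atp5o record, an alternative chosen after seeing the data, kept the pooled ratios over all members and the member, exon and uridine shares within their intervals. The ATP synthase ratio of ΔZF1 over WT without it was -0.52 (-0.73 to -0.31) in ESCs, with 11 of 14 members below 0, and -0.97 (-1.30 to -0.65) in NPCs, with 8 of 8. Densities, scores and the other results were not recomputed without it.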
